A study of Homo sapiens with 18 samples.

Results

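The genes described here are 37 members of the homologous recombination and Fanconi repair machinery, of 61544 genes listed in 2 tables of raw read counts. They were chosen by symbol, with earlier results of these data known. They comprise 14 recombination genes, 3 genes of the break-end binding MRN complex, 9 Fanconi genes and 4 checkpoint kinases. POLQ, the mismatch repair gene MSH6 and 5 end joining genes were set beside them. Poly(A) RNA was sequenced from BJ, a line of human skin fibroblasts, with less or more of the long noncoding RNA PURPL than in controls, in a series on senescence. In the knockdown table, 3 sgRNA-PURPL#1 and 3 sgRNA-PURPL#2 libraries (guide RNAs against PURPL) stood against 3 sgCtrl libraries (control guide). In the overexpression table, 3 PURPL#1-OE and 3 PURPL#2-OE libraries (cells overexpressing PURPL) stood against 3 Ctrl libraries. What sets PURPL#1-OE and PURPL#2-OE apart (line, construct or clone) is not in the labels, and line is only a short name here. Nor is it stated that libraries of 1 group are separate cultures, so a p-value here is set against the spread of these samples, which may be technical.

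Homologous recombination copies an intact sister chromatid to mend a double-strand break, and it works mainly in S and G2 phase. Nucleases trim the broken end to single-stranded DNA, BRCA1, PALB2 and BRCA2 prepare it for the search for a matching strand, and helicases and nucleases take the joined molecules apart. The Fanconi pathway unhooks crosslinks between the DNA strands: a core complex attaches ubiquitin to FANCD2 and FANCI at stalled forks. End joining with the Ku proteins ligates ends without a template and works through most of the cell cycle. Many genes of recombination and crosslink repair are transcribed mainly in cycling cells, and fibroblasts that leave the cycle have been described to express less of them.

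Knockdown libraries held 11444513 to 12896040 counts and overexpression libraries 18858976 to 27985649. All 10 fibroblast markers were above 1 CPM in all 18 libraries, and the leukocyte markers summed to between 0.237 and 2.35 CPM. Levels are CPM (counts relative to the library total) scaled by TMM, a method that corrects library totals for composition. PURPL was at 17.9, 15.2 and 14.1 CPM in sgRNA-PURPL#1 libraries and 19.0, 21.5 and 17.9 CPM in sgRNA-PURPL#2 libraries, against 71.1, 77.0 and 94.3 CPM in sgCtrl libraries. In the other table PURPL was at 166, 178 and 176 CPM in PURPL#1-OE libraries and 125, 129 and 114 CPM in PURPL#2-OE libraries, against 67.3, 66.7 and 59.2 CPM in Ctrl libraries. The targeted RNA thus followed the labels in every library, with log2 fold changes of -2.36, -2.06, 1.43 and 0.93 in that order of the 4 groups.

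The counts were made over whole gene spans, which limits some members. RAD50, a subunit of the MRN complex, shares 99.7% of its span with another gene on the same strand and held only 158 counts over all 18 libraries, so its level was in effect not measured. RAD54B shares 56.8% and BRCA1 17.4% of their spans in this way. The strand setting of the counting is not given in the sources used here. On the opposite strand, 6 members are overlapped by a gene with more counts than their own: EME1 (77.7% of its span), XRCC3 (93%), RAD54L (54%), MSH6 (18.1%), FANCA (15.8%) and FANCL (0.825%). Reads of these members and of their neighbours may not be told apart.

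Most recombination and Fanconi members were lower in both experiments, although PURPL was lowered in one and raised in the other. Against sgCtrl, 21 of the 36 members tested were lower and 1 higher with sgRNA-PURPL#1, and 18 were lower and 1 higher with sgRNA-PURPL#2. Against Ctrl, 26 of 37 were lower and 2 higher in PURPL#1-OE, and 23 were lower and 2 higher in PURPL#2-OE. Calls are those of edgeR's quasi-likelihood test with a Benjamini-Hochberg adjusted p below 0.05 over all genes. Of all genes tested, 24.5% and 24.4% were called in either direction with the 2 guides (12.9% and 12.4% lower, 11.6% and 11.9% higher), and 39.6% and 38.5% in the 2 overexpression lines (20.1% and 19.6% lower, 19.5% and 18.9% higher). The median log2 fold change of the members was -0.42 and -0.35 with the guides and -0.67 and -0.67 in the lines, while the median of all genes lay between 0.00 and 0.01. Since the members were chosen with earlier results known, the comparison with all genes only describes them and is no test of these pathways. RAD50 is the member that was too low to be tested in the knockdown table. Each pair of arms shares its control libraries, so the 2 guides are not independent of each other, nor are the 2 lines. In bulk RNA, fewer cells that express a gene and less RNA per cell cannot be told apart.

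**Figure D1:**
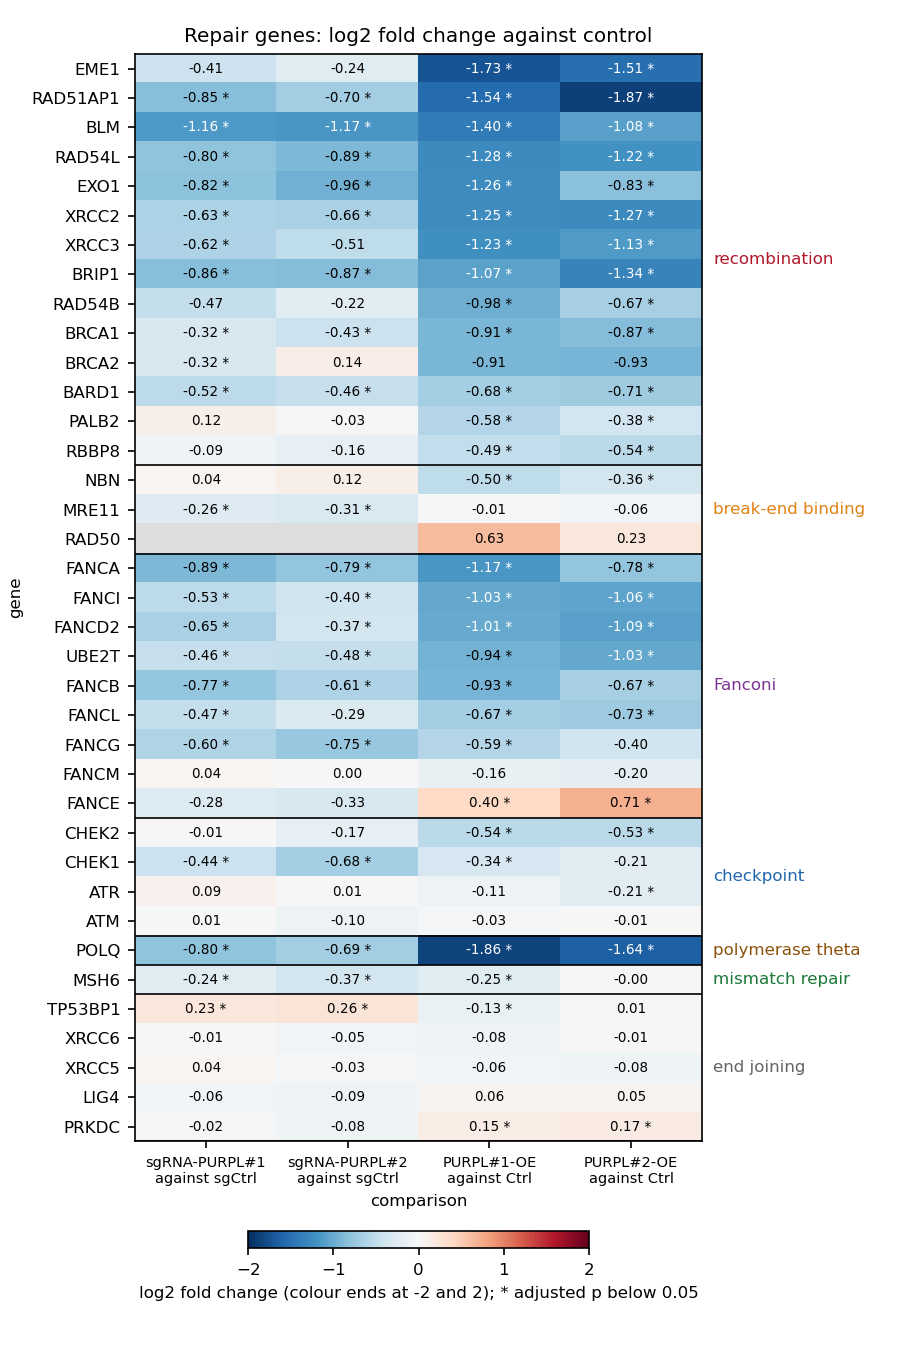
Log2 fold change of the 37 repair genes (rows, grouped by role) in each of the 4 comparisons against control (columns), with the value in each cell and a star where the adjusted p is below 0.05; grey marks RAD50, not tested in the knockdown table. Blue fills most of the recombination and Fanconi rows, and the end joining rows at the bottom are near white.

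Expression of 14 members was lower in all 4 comparisons: BRCA1, BARD1, RAD51AP1, RAD54L, XRCC2, BRIP1, BLM, EXO1, FANCA, FANCB, FANCD2, FANCI, UBE2T and POLQ. A further 6 were lower in both overexpression lines and with neither guide: PALB2, RAD54B, RBBP8, EME1, NBN and CHEK2. The test of the difference between the experiments passed for the others of these and not for RAD54B (-0.48, adjusted p = 0.232). At the other end, 6 members passed the test in none of the 4 comparisons: RAD50, FANCM, ATM, XRCC5, XRCC6 and LIG4. How many of all genes follow these joint patterns was not counted, and the arms of each table share controls, so the counts have no background here. Over the 27 recombination, Fanconi and checkpoint members, the median log2 fold change was -0.47 and -0.43 with the guides and -0.93 and -0.78 in the lines, with 18, 15, 22 and 21 members lower. The 4 checkpoint members alone had smaller medians of -0.002, -0.13, -0.23 and -0.21, with 1, 1, 2 and 2 lower. Over the 6 mismatch repair and end joining members the median was -0.02, -0.07, -0.07 and 0.00, with 1, 1, 2 and 0 members lower and 1 higher in each comparison. POLQ, whose polymerase also joins ends, is not among these 6 and was lower in all 4 comparisons (log2 fold changes -0.80, -0.69, -1.86 and -1.64).

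**Figure D2:**
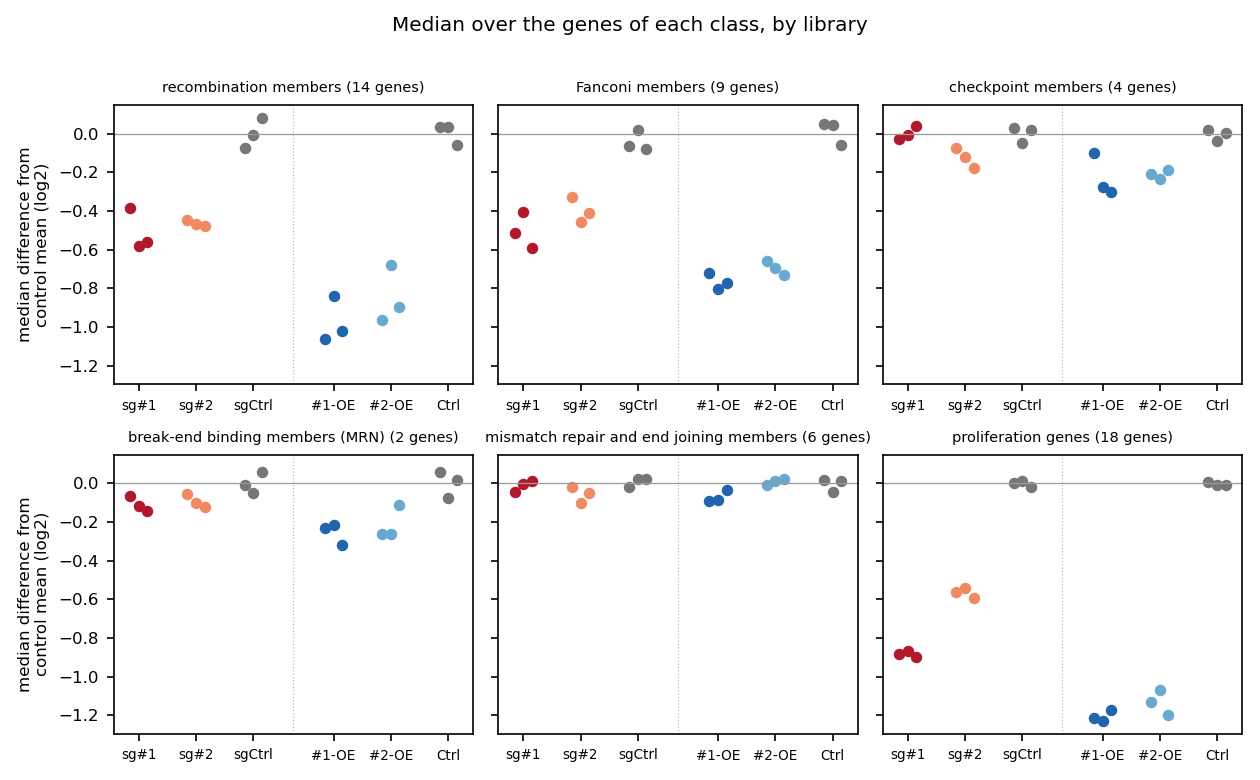
Median, over the genes of each class, of the log2 difference between a library and the mean of its own control group, with 1 point per library; the 3 groups of the knockdown table stand left of the dotted line and those of the overexpression table right of it. Recombination and Fanconi medians of all 12 libraries with a guide against PURPL or with PURPL overexpressed lie below all 6 control libraries, whereas mismatch repair and end joining medians of these libraries lie between -0.10 and 0.02.

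Start-site sequences are shown for the members with an E2F word and for 3 further members with CCAAT boxes, chosen after their values were seen, since E2F factors drive many S-phase genes and CCAAT boxes are frequent in promoters of cell cycle genes. RefSeq windows (GRCh38.p14, 250 bases before to 50 after the start) matched 32 of the 37 members. Where a gene had several windows, only the first listed was searched. For 27 members, the first 30 bases after the start lay in an annotated transcript of the gene (GENCODE release 29). For BRCA1, XRCC3, BRIP1, FANCE and FANCM they did not. Both strands were searched for 3 motifs: E2F (TTTCCCGC, TTTCGCGC, TTTGCCGC or TTTGGCGC), the CCAAT box (CCAAT) and the CHR element (TTTGAA). No match of one motif overlapped a match of another. E2F words stood in 6 of 32 windows (18.8%), against 3.33% of the 27305 genes with a window. Among the members lower in all 4 comparisons they stood in 4 of 13 windows (30.8%), and among the other members in 2 of 19 (10.5%). The CCAAT box stood in 50% of member windows and in 35.7% of all, and the CHR element in 12.5% and 15.4%. In the same split of members, the CCAAT box stood in 46.2% and 52.6% of windows and the CHR element in 23.1% and 5.26%. The split rests on calls in these same data, and no difference in motif share was tested. A match is a run of letters and not a measured binding site, and the window set was small. The 6 E2F words are given in capitals, each within 30 bases read on the strand of the gene.
XRCC2 (chr7:152676102-152676131, minus strand): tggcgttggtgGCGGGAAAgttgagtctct
EXO1 (chr1:241848197-241848226, plus strand): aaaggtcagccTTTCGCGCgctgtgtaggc
FANCA (chr16:89816801-89816830, minus strand): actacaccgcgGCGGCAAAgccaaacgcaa
FANCD2 (chr3:10026424-10026453, plus strand): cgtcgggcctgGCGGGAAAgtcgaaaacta
MSH6 (chr2:47783137-47783166, plus strand): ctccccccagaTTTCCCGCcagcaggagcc
XRCC6 (chr22:41621315-41621344, plus strand): tgtccaagttggtcgcttccctGCGCCAAA

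RefSeq starts are not always the starts of the gene spans printed with the values, which come from the deposited tables, and those of RAD51AP1, FANCA and FANCD2 lie inside these spans. Counted from the RefSeq start, the words lie within 50 bases after it in XRCC2, EXO1, MSH6 and XRCC6, across it in FANCD2 and 172 bases before it in FANCA. XRCC6, which codes for the Ku70 protein, holds one and passed the test in no comparison. RAD51AP1, BLM and CHEK2, with no E2F word, are shown by the 150 bases before their RefSeq start, with CCAAT boxes of either strand in capitals. These 3 genes were lower in both overexpression lines, but CCAAT boxes were not confined to such genes. They also stood in the windows of MRE11, which passed in neither line, and of CHEK1, which among the lines passed in PURPL#1-OE only. The windows of ATM, FANCM and XRCC6, called in no comparison, held them too.
RAD51AP1 (chr12:4538740-4538889, plus strand): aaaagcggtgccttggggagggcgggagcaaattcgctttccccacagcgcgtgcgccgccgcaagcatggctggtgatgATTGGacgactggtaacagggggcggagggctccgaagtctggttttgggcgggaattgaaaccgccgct
BLM (chr15:90717196-90717345, plus strand): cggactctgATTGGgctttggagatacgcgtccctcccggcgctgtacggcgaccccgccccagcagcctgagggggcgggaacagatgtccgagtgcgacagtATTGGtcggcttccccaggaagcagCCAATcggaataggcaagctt
CHEK2 (chr22:28741821-28741970, minus strand): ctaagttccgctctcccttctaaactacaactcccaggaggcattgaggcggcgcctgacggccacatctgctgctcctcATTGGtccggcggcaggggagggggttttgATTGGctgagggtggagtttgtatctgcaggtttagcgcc

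Of the 14 recombination genes, 10 were lower with sgRNA-PURPL#1, 8 with sgRNA-PURPL#2 and 13 in each overexpression line, and none was higher. Their median log2 fold change was -0.57 and -0.49 with the guides and -1.15 and -1.01 in the lines. RAD51AP1, which helps the trimmed strand pair with its template (chr12:4538798-4560047, hg38), was at 8.87, 8.48 and 9.06 CPM in sgRNA-PURPL#1 libraries and 10.4, 9.82 and 9.16 CPM in sgRNA-PURPL#2 libraries, against 16.8, 14.2 and 16.7 CPM in sgCtrl libraries. It was at 6.44, 4.90 and 5.26 CPM in PURPL#1-OE libraries and 5.28, 4.40 and 3.69 CPM in PURPL#2-OE libraries, against 16.6, 16.6 and 15.1 CPM in Ctrl libraries. No library with PURPL changed reached the lowest control. Its level was 55.4% and 61.6% of sgCtrl with the guides and 34.5% and 27.3% of Ctrl in the lines, the last being the largest decrease of any member (log2 fold change -1.87 ± 0.13 SE, edgeR adjusted p = 5.01e-13).

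BLM, the helicase that dissolves joined DNA molecules (chr15:90717346-90816166), changed by nearly the same amount in all 4 comparisons. It was at 1.56, 2.69 and 3.49 CPM in sgRNA-PURPL#1 libraries and 2.48, 2.85 and 2.27 CPM in sgRNA-PURPL#2 libraries, against 5.29, 5.68 and 6.11 CPM in sgCtrl libraries. In the overexpression table BLM was at 2.40, 1.98 and 1.94 CPM in PURPL#1-OE and 2.45, 1.62 and 3.77 CPM in PURPL#2-OE libraries, against 6.08, 5.79 and 4.85 CPM in Ctrl libraries. The groups did not overlap in either table, and with log2 fold changes of -1.16, -1.17, -1.40 and -1.08 BLM had the largest decrease of all members with both guides.

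EME1 (chr17:50373220-50381483), the partner of the MUS81 nuclease that cuts joined DNA molecules, passed the test in the lines only. Its libraries were at 0.930, 1.39 and 1.58 CPM in PURPL#1-OE and 1.23, 1.57 and 1.68 CPM in PURPL#2-OE, against 4.13, 4.30 and 4.49 CPM in Ctrl, which is 30.1% and 35.1% of Ctrl (log2 fold changes -1.73 ± 0.21 and -1.51 ± 0.21, SE). With the guides it was at 4.28, 3.01 and 3.05 CPM and at 5.12, 2.94 and 3.60 CPM, against 4.34, 5.14 and 4.31 CPM in sgCtrl libraries, and these groups overlapped. The effect in the lines minus that of the guides was -1.30 on the log2 scale (edgeR adjusted p = 5.58e-05). LRRC59, the gene on the opposite strand over most of EME1, was also lower in both lines (log2 fold changes -0.38 and -0.32). It was lower with sgRNA-PURPL#1 too (-0.24, edgeR adjusted p = 0.00474), and its -0.12 with sgRNA-PURPL#2 did not pass. The part of LRRC59 in the EME1 value was not tested.

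RAD54L, a motor protein that acts during strand pairing, was a low-count gene, at 2.33, 2.69 and 2.61 CPM in sgRNA-PURPL#1 and 1.90, 3.11 and 2.19 CPM in sgRNA-PURPL#2 libraries, against 5.03, 4.12 and 4.23 CPM in sgCtrl. In the lines it was at 1.22, 1.53 and 1.108 CPM and at 1.44, 1.43 and 1.15 CPM, against 2.85, 3.36 and 3.10 CPM in Ctrl. All its PURPL-altered libraries were below their controls, at 57.3%, 53.9%, 41.2% and 43.0% of them. BRIP1, the helicase that binds BRCA1, was at 10.6, 13.2 and 11.3 CPM in sgRNA-PURPL#1 and 12.3, 11.6 and 11.1 CPM in sgRNA-PURPL#2 libraries, against 20.6, 20.0 and 23.1 CPM in sgCtrl. In the lines BRIP1 was at 17.4, 17.1 and 17.6 CPM in PURPL#1-OE and 15.8, 14.8 and 12.8 CPM in PURPL#2-OE, against 34.96, 37.3 and 37.4 CPM in Ctrl. The replicates lay close together, and BRIP1 was lower in PURPL#2-OE than in PURPL#1-OE (log2 difference -0.27, edgeR adjusted p = 0.0394). That call was lost in DESeq2 (adjusted p = 0.0571), in a fit of these 2 groups alone (0.0567), without any 1 library of PURPL#1-OE, without Ctrl replicate 1, and without the second unnumbered library or replicate 3 of PURPL#2-OE (-0.19 without replicate 3).

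EXO1, a nuclease that trims break ends and also serves mismatch repair, was at 7.94, 7.21 and 7.76 CPM in sgRNA-PURPL#1 and 7.27, 6.46 and 6.97 CPM in sgRNA-PURPL#2 libraries, against 12.7, 14.2 and 13.5 CPM in sgCtrl. It was at 6.01, 5.35 and 5.70 CPM in PURPL#1-OE and 7.09, 8.24 and 7.66 CPM in PURPL#2-OE libraries, against 15.4, 13.5 and 11.8 CPM in Ctrl. EXO1 thus separated the 2 lines in the direction opposite to BRIP1, being higher in PURPL#2-OE than in PURPL#1-OE by 0.43 (adjusted p = 0.0206), a call lost without the second or the third unnumbered PURPL#1-OE library or the second unnumbered PURPL#2-OE library. XRCC2 and XRCC3, which act in recombination beside BRCA2, were lower in both lines at 42.0% and 41.5% of Ctrl and at 42.7% and 45.6% of Ctrl. With the guides, XRCC2 was at 64.7% and 63.5% of sgCtrl and past the test with both, and XRCC3 was at 65.2% and 70.0%, past the test with sgRNA-PURPL#1 only (adjusted p = 0.0207 and 0.0529). The XRCC2 call of sgRNA-PURPL#2 was lost without replicate 2 of that guide. The XRCC3 call was lost in PURPL#2-OE without replicate 3 of that line, and with sgRNA-PURPL#1 without replicate 3 of that guide or replicate 2 of sgCtrl. With sgRNA-PURPL#2 it passed without sgCtrl replicate 1 or sgRNA-PURPL#1 replicate 3 (adjusted p = 0.0367 and 0.0422). RAD54B, related to RAD54L, was lower in the lines, at 50.8% and 62.9% of Ctrl, and at 72.0% and 85.7% of sgCtrl with the guides, not past the test. Its PURPL#2-OE call was lost on leaving out any 1 library of that line or of Ctrl.

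BRCA1 and BRCA2, which act after end trimming, are given by library after their values were seen, since their libraries spread widely. BRCA1 was at 38.6, 37.6 and 35.04 CPM in sgRNA-PURPL#1 and 33.3, 36.2 and 33.5 CPM in sgRNA-PURPL#2 libraries, against 36.95, 50.5 and 51.3 CPM in sgCtrl, where replicate 1 was low. The log2 fold changes were -0.32 and -0.43. The BRCA1 call with sgRNA-PURPL#1 was lost on leaving out replicate 3 of that guide or replicate 2 or 3 of sgCtrl. In the lines BRCA1 was at 23.5, 37.9 and 27.0 CPM and at 25.8, 34.1 and 30.7 CPM, against 59.2, 58.0 and 48.1 CPM in Ctrl (-0.91 and -0.87, adjusted p = 0.00886 and 0.0116). BRCA2 was at 14.9, 32.9 and 23.2 CPM in PURPL#1-OE and 14.7, 32.1 and 22.3 CPM in PURPL#2-OE libraries, against 45.1, 45.6 and 41.6 CPM in Ctrl. All 6 PURPL-overexpressing libraries were below all 3 controls, yet with this spread BRCA2 did not pass edgeR's test (-0.91 ± 0.35 and -0.93 ± 0.35 SE, adjusted p = 0.0864 and 0.0858). With the other tools run it did pass at about the same size, in DESeq2 (-0.90 and -0.94, adjusted p = 0.0457 and 0.036) and in limma-voom (-1.003 and -0.99, adjusted p = 0.00017 and 0.000311). Without the second unnumbered PURPL#1-OE library edgeR also called it there (-1.22, adjusted p = 0.0476). With the guides BRCA2 was at 18.1, 20.8 and 20.7 CPM in sgRNA-PURPL#1 and 25.8, 29.8 and 26.3 CPM in sgRNA-PURPL#2 libraries, against 19.7, 24.7 and 29.8 CPM in sgCtrl. It was the single member that differed between the guides, higher with sgRNA-PURPL#2 than with sgRNA-PURPL#1 by 0.46 (adjusted p = 0.00817). That difference was lost without sgRNA-PURPL#1 replicate 1 or sgRNA-PURPL#2 replicate 2. Its call against sgCtrl with sgRNA-PURPL#1 was lost without any 1 library of that guide, without sgCtrl replicate 2 or 3 and without sgRNA-PURPL#2 replicate 3. With sgRNA-PURPL#2 its 0.14 became 0.29 and passed without sgCtrl replicate 3 (adjusted p = 0.0351).

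BARD1, the partner of BRCA1 in a ubiquitin ligase, had tighter replicates and was lower throughout (log2 fold changes -0.52, -0.46, -0.68 and -0.71). PALB2, which bridges BRCA1 and BRCA2, was at 109% and 98.0% of sgCtrl with the guides and passed with neither, and fell to 66.9% and 76.6% of Ctrl in the lines. RBBP8, the CtIP protein that starts end trimming, was likewise at 94.0% and 89.3% of sgCtrl, not past the test, and at 71.3% and 68.7% of Ctrl in the lines, where it fell. In both genes the change in the lines differed from that with the guides (-0.53 and -0.39 on the log2 scale, adjusted p = 7.16e-05 and 5.61e-05).

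**Figure D3:**
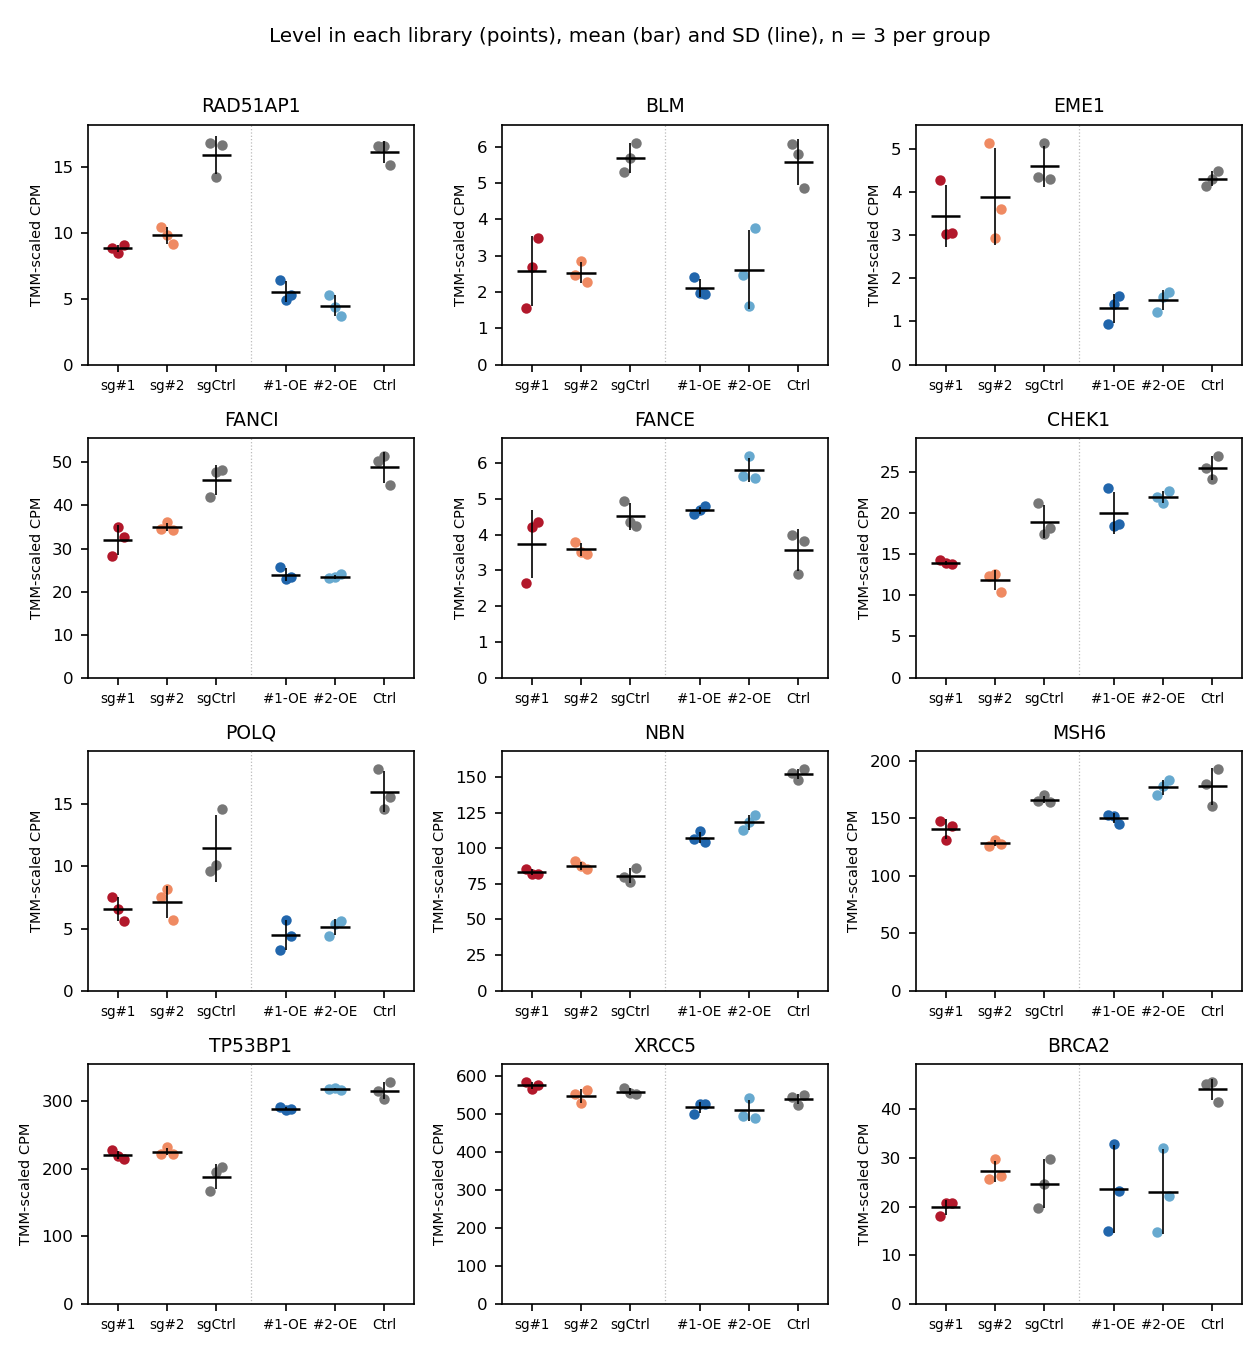
TMM-scaled CPM of 12 repair genes in each library (points), with the group mean (bar) and SD (line), 3 libraries a group; the knockdown table is left of the dotted line. RAD51AP1, BLM and POLQ are low in every library with PURPL changed, EME1 and NBN in the overexpression lines, XRCC5 is level, and BRCA2 spreads from 14.7 to 32.9 CPM within the lines.

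Among the 9 Fanconi genes, 7 were lower with sgRNA-PURPL#1, 6 with sgRNA-PURPL#2, 7 in PURPL#1-OE and 6 in PURPL#2-OE, and FANCE was higher in both lines. FANCI and FANCD2, the pair that receives the ubiquitin, changed in the same way. FANCI (chr15:89243945-89317261) was at 28.2, 35.03 and 32.6 CPM in sgRNA-PURPL#1 and 34.5, 36.1 and 34.4 CPM in sgRNA-PURPL#2 libraries, against 42.0, 47.7 and 48.3 CPM in sgCtrl. It was at 25.6, 22.8 and 23.3 CPM in PURPL#1-OE and 23.1, 23.3 and 24.0 CPM in PURPL#2-OE libraries, against 50.4, 51.5 and 44.7 CPM in Ctrl. The 6 libraries of the lines lay close together, at 49.0% and 48.0% of Ctrl. FANCD2 (chr3:10026370-10101932) was at 6.76, 6.79 and 8.31 CPM in PURPL#1-OE and 6.93, 6.06 and 7.74 CPM in PURPL#2-OE libraries, against 15.9, 14.1 and 14.1 CPM in Ctrl. With the guides it was at 8.71, 8.08 and 7.50 CPM and at 10.1, 8.64 and 10.9 CPM, against 11.1, 12.9 and 14.1 CPM in sgCtrl. For both genes the lines departed further from control than the guides did (-0.59 and -0.55 on the log2 scale, adjusted p = 2.19e-06 and 0.00331). The FANCD2 call of sgRNA-PURPL#2 (adjusted p = 0.0356) was lost without sgCtrl replicate 2 or 3 or without replicate 1 or 2 of that guide.

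The enzymes that attach the ubiquitin are UBE2T, the conjugating enzyme, and FANCL, the ligase of the core complex. UBE2T was at 4.69, 4.59 and 3.36 CPM in PURPL#1-OE and 3.94, 4.49 and 3.48 CPM in PURPL#2-OE libraries, against 7.21, 9.34 and 7.69 CPM in Ctrl. With the guides it was at 7.39, 5.15 and 8.11 CPM and at 7.43, 6.21 and 6.65 CPM, against 10.9, 8.87 and 8.69 CPM in sgCtrl. The groups did not overlap in either table, at 52.1% and 49.0% of Ctrl and 72.5% and 71.5% of sgCtrl. The UBE2T calls of both guides were lost without sgCtrl replicate 1 or without replicate 2 of the guide, and that of sgRNA-PURPL#2 also without its replicate 3. FANCL was lower in the lines (log2 fold changes -0.67 and -0.73) and with sgRNA-PURPL#1 (-0.47), while its -0.29 with sgRNA-PURPL#2 did not pass (adjusted p = 0.0714) except without sgCtrl replicate 3 (-0.36, adjusted p = 0.0305).

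FANCA, a core complex subunit (chr16:89726683-89816977), was at 6.22, 6.02 and 6.19 CPM in sgRNA-PURPL#1 and 5.95, 7.13 and 6.73 CPM in sgRNA-PURPL#2 libraries, against 12.4, 11.6 and 10.3 CPM in sgCtrl. It was at 2.36, 2.34 and 3.28 CPM in PURPL#1-OE and 3.46, 3.56 and 3.40 CPM in PURPL#2-OE libraries, against 6.20, 6.06 and 5.68 CPM in Ctrl. FANCA was thus near 53.8% and 57.8% of sgCtrl and 44.5% and 58.0% of Ctrl, and like BLM it did not differ between the experiments beyond its error (-0.14, 95% interval -0.48 to 0.21). FANCB, another core subunit, was at 5.29, 7.77 and 4.88 CPM and at 6.03, 7.22 and 6.89 CPM with the guides, against 8.59, 9.42 and 12.7 CPM in sgCtrl. In the lines it was at 7.23, 8.05 and 7.60 CPM and at 9.43, 7.64 and 10.2 CPM, against 15.2, 14.9 and 13.3 CPM in Ctrl. It fell in all 4 comparisons, and the sgRNA-PURPL#2 call was lost without sgCtrl replicate 3.

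FANCG, which stabilises FANCA, was lower with both guides (-0.60 and -0.75) and in PURPL#1-OE (-0.59), and its -0.40 in PURPL#2-OE missed the threshold (adjusted p = 0.0574), which it passed without Ctrl replicate 2 (0.0321) or the third unnumbered PURPL#1-OE library (0.0423). FANCE, the subunit that contacts FANCD2, moved against the rest of the family in the lines and is described after its values were seen. It was at 4.58, 4.68 and 4.79 CPM in PURPL#1-OE and 5.65, 6.20 and 5.57 CPM in PURPL#2-OE libraries, against 3.98, 2.89 and 3.82 CPM in Ctrl, with no overlap (0.40 and 0.71, adjusted p = 0.038 and 0.000357). The PURPL#1-OE call was lost without any 1 library of that line or without Ctrl replicate 2. With the guides FANCE was at 2.65, 4.20 and 4.36 CPM and at 3.80, 3.53 and 3.44 CPM, against 4.94, 4.36 and 4.23 CPM in sgCtrl, and did not pass, but the difference between the experiments did (0.85, adjusted p = 0.00157). FANCM, the translocase that recruits the core complex to DNA, ranged from 11.8 to 15.7 CPM with the guides against 11.1 to 14.6 CPM in sgCtrl, and from 13.98 to 20.1 CPM in the lines against 18.3 to 20.1 CPM in Ctrl. It passed in no comparison, and its 95% intervals lay between -0.41 and 0.29 on the log2 scale. In PURPL#2-OE its -0.20 became -0.35 and passed without replicate 3 of that line (adjusted p = 0.00632).

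Checkpoint kinases signal the damage to the cell cycle. CHEK1, the effector of ATR (chr11:125625163-125676255), was at 14.2, 13.9 and 13.8 CPM in sgRNA-PURPL#1 and 12.4, 12.6 and 10.4 CPM in sgRNA-PURPL#2 libraries, against 21.2, 17.4 and 18.2 CPM in sgCtrl. It was at 23.0, 18.3 and 18.6 CPM in PURPL#1-OE and 21.9, 21.1 and 22.7 CPM in PURPL#2-OE libraries, against 25.4, 24.0 and 26.9 CPM in Ctrl. The groups did not overlap in either table. CHEK1 fell to 74.0% and 62.4% of sgCtrl with the guides and to 78.9% of Ctrl in PURPL#1-OE, and its 86.3% in PURPL#2-OE did not pass (adjusted p = 0.0562), although it did without Ctrl replicate 2 (0.0455) or the first unnumbered PURPL#1-OE library (0.0415).

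CHEK2, the effector of ATM, passed the test in the lines only. It was at 17.0, 15.7 and 17.6 CPM in PURPL#1-OE and 18.3, 15.5 and 17.0 CPM in PURPL#2-OE libraries, against 25.2, 23.2 and 25.0 CPM in Ctrl. With the guides it was at 14.7, 14.7 and 16.3 CPM and at 14.7, 12.7 and 13.5 CPM, against 16.5, 14.4 and 15.1 CPM in sgCtrl, where the groups overlapped. The line effect differed from the guide effect (-0.46, adjusted p = 0.00192). Of the kinases at the head of the pathway, ATR was at 76.1, 74.1 and 70.8 CPM in PURPL#1-OE and 68.4, 68.8 and 68.5 CPM in PURPL#2-OE libraries, against 81.0, 79.5 and 77.7 CPM in Ctrl, and passed in PURPL#2-OE only (-0.21, adjusted p = 0.0023). ATR with the guides was at 60.0, 59.2 and 58.8 CPM and at 58.1, 59.2 and 51.2 CPM, against 54.1, 55.4 and 58.0 CPM in sgCtrl, not past. ATM ranged from 240 to 247 CPM in the lines against 242 to 251 CPM in Ctrl, and from 114 to 134 CPM with the guides against 109 to 146 CPM in sgCtrl, and did not pass with all libraries in the fit. Without sgCtrl replicate 1 its -0.10 with sgRNA-PURPL#2 became -0.21 and passed (adjusted p = 0.00909).

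MRE11 and NBN, the nuclease and the signalling subunit of the MRN complex, which binds fresh break ends, changed in different experiments. MRE11 was at 39.7, 38.7 and 37.4 CPM in sgRNA-PURPL#1 and 38.2, 37.01 and 36.95 CPM in sgRNA-PURPL#2 libraries, against 46.2, 45.8 and 46.9 CPM in sgCtrl (-0.26 and -0.31, adjusted p = 0.00588 and 0.00148). In the lines it was at 54.3, 52.6 and 48.7 CPM and at 48.8, 46.5 and 54.9 CPM, against 56.2, 48.3 and 52.3 CPM in Ctrl, with overlap. NBN was at 106, 112 and 104 CPM in PURPL#1-OE and 113, 118 and 123 CPM in PURPL#2-OE libraries, against 153, 148 and 156 CPM in Ctrl (-0.50 and -0.36, adjusted p = 3.21e-09 and 1.45e-06). With the guides NBN was at 85.7, 82.0 and 82.0 CPM and at 90.7, 87.5 and 85.2 CPM, against 79.9, 76.2 and 86.2 CPM in sgCtrl, not past. The difference between experiments was 0.25 for MRE11 and -0.52 for NBN (adjusted p = 0.0244 and 1.22e-07), and that of MRE11 was lost without Ctrl replicate 2 (0.19, adjusted p = 0.112) or PURPL#2-OE replicate 3 (0.21, adjusted p = 0.0523). For RAD50 the counts were 60 and 39 in the lines against 36 in Ctrl, summed over 3 libraries each, and 5 and 12 with the guides against 6 in sgCtrl, and nothing can be read from them.

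POLQ codes for polymerase theta, which joins break ends at short repeats when recombination has begun but not finished. It was at 7.55, 6.58 and 5.58 CPM in sgRNA-PURPL#1 and 7.52, 8.14 and 5.72 CPM in sgRNA-PURPL#2 libraries, against 9.63, 10.1 and 14.6 CPM in sgCtrl. It was at 3.29, 5.71 and 4.39 CPM in PURPL#1-OE and 4.37, 5.37 and 5.57 CPM in PURPL#2-OE libraries, against 17.8, 14.6 and 15.5 CPM in Ctrl. The groups did not overlap in either table, and POLQ fell to 57.5% and 62.0% of sgCtrl and to 27.6% and 32.1% of Ctrl.

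The Ku and ligase genes of end joining, in contrast, showed little change. XRCC5 (Ku80) ranged from 528 to 583 CPM with the guides against 551 to 568 CPM in sgCtrl, and from 490 to 542 CPM in the lines against 524 to 549 CPM in Ctrl. XRCC6 (Ku70) ranged from 277 to 309 CPM against 290 to 311 CPM in sgCtrl, and from 241 to 279 CPM against 262 to 267 CPM in Ctrl. LIG4, the ligase of the pathway, ranged from 41.0 to 44.9 CPM against 44.4 to 47.2 CPM in sgCtrl, and from 51.6 to 57.4 CPM against 51.3 to 55.3 CPM in Ctrl. These 3 genes carried many counts, and no 95% interval of theirs against control reached beyond -0.24 or 0.18 on the log2 scale, so changes as large as those of the recombination genes called were outside these intervals.

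PRKDC, the kinase that Ku recruits, was at 336, 340 and 336 CPM in PURPL#1-OE and 342, 336 and 346 CPM in PURPL#2-OE libraries, against 315, 316 and 281 CPM in Ctrl (0.15 and 0.17, adjusted p = 0.0201 and 0.0102). Both calls were lost without Ctrl replicate 3, and the PURPL#1-OE call also without the second or the third of its unnumbered libraries. With the guides PRKDC was at 323, 332 and 331 CPM and at 310, 328 and 308 CPM, against 287, 354 and 362 CPM in sgCtrl, not past. Without sgCtrl replicate 1, PRKDC with sgRNA-PURPL#2 went past the test (-0.18 in place of -0.08, adjusted p = 0.00715). TP53BP1, which shields ends from trimming and so opposes BRCA1, was at 228, 219 and 215 CPM in sgRNA-PURPL#1 and 223, 232 and 222 CPM in sgRNA-PURPL#2 libraries, against 167, 195 and 202 CPM in sgCtrl. It was the single member higher with the guides (0.23 and 0.26, adjusted p = 0.00819 and 0.0029), and the sgRNA-PURPL#1 call was lost without replicate 1 of that guide. In the lines TP53BP1 was at 291, 287 and 288 CPM in PURPL#1-OE and 318, 320 and 316 CPM in PURPL#2-OE libraries, against 315, 304 and 328 CPM in Ctrl. The PURPL#1-OE decrease of -0.13 (adjusted p = 0.0368) was lost without any 1 library of that line or Ctrl replicate 1 or 3, and PURPL#2-OE overlapped Ctrl.

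MSH6, which recognises mispaired bases, was at 147, 131 and 144 CPM in sgRNA-PURPL#1 and 126, 131 and 128 CPM in sgRNA-PURPL#2 libraries, against 165, 170 and 164 CPM in sgCtrl. It was at 153, 152 and 145 CPM in PURPL#1-OE and 170, 178 and 183 CPM in PURPL#2-OE libraries, against 180, 161 and 193 CPM in Ctrl. The decreases were small (-0.24, -0.37 and -0.25, all past the test), PURPL#2-OE was level with Ctrl, and the 2 lines differed from each other by 0.24 (adjusted p = 0.00449).

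To compare the experiments, the mean guide effect was subtracted from the mean line effect in 1 fit of the 18 libraries. This difference is signed, so a call does not tell in which experiment a gene changed more. TP53BP1 and MRE11, for instance, were called although their changes against control were larger with the guides. Of 37 members, 15 were more negative in the lines and 3 less so (MRE11, FANCE and PRKDC), where 33.6% of all genes tested were called (18% and 15.6% in these directions). The 15 were PALB2, RAD51AP1, XRCC2, BRIP1, RBBP8, EME1, NBN, FANCD2, FANCI, FANCL, UBE2T, ATR, CHEK2, POLQ and TP53BP1, with sizes from -0.21 for ATR to -1.30 for EME1. Of these 18 calls, 6 were lost under at least 1 alternative. FANCL (adjusted p = 0.049) was lost on leaving out any of 12 libraries and under RLE scaling, upper quartile scaling, DESeq2 and no filter. UBE2T (0.0298) was lost on leaving out any of 8 libraries and in DESeq2, and ATR (0.0246) on leaving out any of 5 libraries and with no filter. BRIP1 was lost without sgCtrl replicate 2, PRKDC without Ctrl replicate 3 or sgCtrl replicate 2 or 3, and MRE11 as given above. BRCA1 (-0.52, adjusted p = 0.0725) was not called by edgeR and was by DESeq2 (-0.50, 0.0242) and limma-voom (-0.55, 0.0047). MSH6, of opposite sign (0.18, edgeR adjusted p = 0.0631), was called by DESeq2 (0.034) and under RLE (0.0355) and upper quartile scaling (0.0281). BRCA2 (-0.84, 0.0894) was called by limma-voom (0.00327). XRCC3 (-0.62, 0.14) was called without the second unnumbered PURPL#2-OE library (-0.92, 0.0206). BRCA1, MSH6 and BRCA2 also passed without some single libraries. BLM, EXO1 and FANCA, among the genes with the largest decreases with the guides, showed no such difference beyond their errors (-0.08, -0.16 and -0.14). RAD51AP1 and POLQ had differences of -0.93 and -1.01. PURPL itself was changed by different amounts and in opposite directions in the 2 experiments, and each has its own control.

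**Figure D4:**
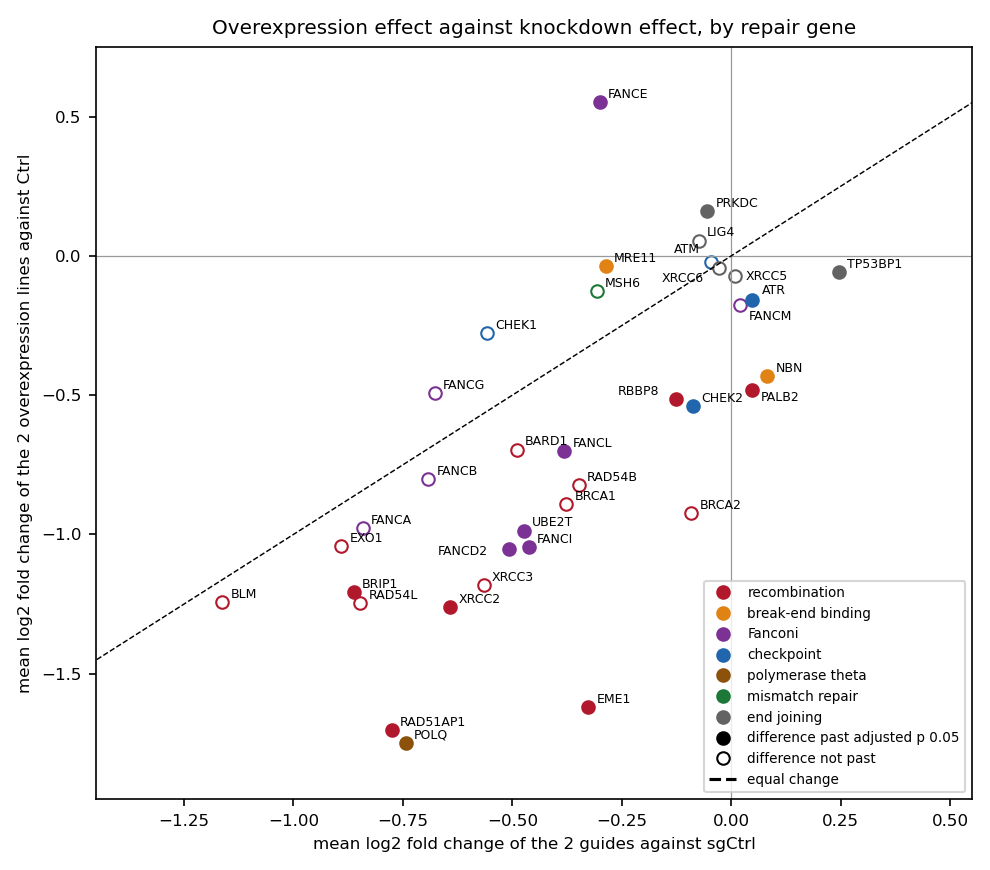
Mean log2 fold change of the 2 overexpression lines against Ctrl (vertical) and of the 2 guides against sgCtrl (horizontal) for the 36 repair genes tested in both tables, coloured by role; filled points passed the joint test of the difference and the dashed line marks equal change. Most recombination and Fanconi genes lie below the line in the lower left, and FANCE stands highest, with a positive line effect and a negative guide effect.

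Beyond the members, of 69 further recombination, Fanconi and checkpoint genes of these pathways, 64 were tested with the guides and 63 in the lines. Of these, 14 and 16 were lower and 9 and 5 higher with the guides, and 27 and 25 were lower and 5 and 6 higher in the lines, with medians of -0.05, -0.16, -0.20 and -0.16. That is 21.9%, 25%, 42.9% and 39.7% lower and 14.1%, 7.81%, 7.94% and 9.52% higher. Of all genes tested, 12.9%, 12.4%, 20.1% and 19.6% were lower and 11.6%, 11.9%, 19.5% and 18.9% higher. RMI2, a partner of BLM, fell in all 4 comparisons (log2 fold changes -0.68, -0.71, -1.04 and -0.86). PARPBP, an inhibitor of recombination, also fell in all 4 (-0.79, -0.52, -0.40 and -0.62). ABRAXAS1, the scaffold of a BRCA1 complex that restrains end trimming, was higher in all 4 (0.33, 0.45, 0.32 and 0.39).

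Around the Fanconi genes, USP1, which removes the ubiquitin from FANCD2, was lower in all 4 comparisons (-0.25, -0.32, -0.47 and -0.33). Its cofactor WDR48 was higher with sgRNA-PURPL#1 (0.38) and lower in both lines (-0.25 and -0.32), and its 0.21 with sgRNA-PURPL#2 did not pass. REV3L, the catalytic subunit of a bypass polymerase, was higher with both guides (0.50 and 0.42) and lower in PURPL#1-OE (-0.20), with -0.04 in PURPL#2-OE not past. DCLRE1B, a nuclease of crosslink repair, was at -0.23 with sgRNA-PURPL#1, not past, and lower in the other 3 (-0.38, -0.60 and -0.50). CLSPN, the claspin that presents CHEK1 to ATR, had the largest decrease of the 69 genes, -0.91 and -1.10 with the guides and -1.87 and -1.63 in the lines. The mitotic phosphatase CDC25C, a target of the checkpoint, fell in all 4 (-0.65, -0.66, -1.42 and -1.48). H2AX, the histone phosphorylated at breaks, did so too (-0.58, -0.49, -0.73 and -0.43), and so did the kinase WEE1 (-0.53, -0.58, -0.23 and -0.21).

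Of 24 further mismatch repair and end joining genes, 23 were tested, with 4, 3, 6 and 6 lower, 3, 2, 3 and 4 higher and medians of 0.04, 0.00, -0.02 and -0.06. The shares lower were 17.4%, 13%, 26.1% and 26.1%, against 12.9%, 12.4%, 20.1% and 19.6% of all genes tested. The shares higher were 13%, 8.7%, 13% and 17.4%, against 11.6%, 11.9%, 19.5% and 18.9% of all. PMS2, a mismatch repair gene, passed with sgRNA-PURPL#2 only (0.23), and MLH3 with sgRNA-PURPL#1 only (0.35). TDP1, which frees blocked DNA ends, was lower in all 4 (-0.41, -0.33, -0.27 and -0.27). PARP1, a sensor of strand breaks, was lower with both guides (-0.26 and -0.25) and higher in PURPL#2-OE (0.18), with -0.10 in PURPL#1-OE not past. NHEJ1, which bridges ends for LIG4, was higher in both lines (0.38 and 0.71), but 93.5% of its span is shared with another gene on the same strand, and it held 1733 counts over all 18 libraries. RIF1, an effector of TP53BP1, was lower in both lines (-0.43 and -0.39). Neither NHEJ1 nor RIF1 passed with the guides.

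Against control, most proliferation markers were lower, as were most recombination and Fanconi members. MKI67 was at 144, 137 and 143 CPM in sgRNA-PURPL#1 and 178, 180 and 177 CPM in sgRNA-PURPL#2 libraries, against 226, 292 and 330 CPM in sgCtrl. It was at 120, 140 and 130 CPM in PURPL#1-OE and 121, 139 and 148 CPM in PURPL#2-OE libraries, against 375, 360 and 394 CPM in Ctrl. Of 18 proliferation genes, none of them a member, 18, 17, 18 and 17 were lower, with median log2 fold changes of -0.89, -0.59, -1.25 and -1.22. Their part in the repair gene values was not tested. Of the proliferation genes, 9 were higher and 1 lower with sgRNA-PURPL#2 than with sgRNA-PURPL#1, with a median of 0.31. The median was -0.01 for the recombination members, 0.10 for the Fanconi members and -0.03 for all 36 members tested, and the difference between the lists was not tested. BRCA2 alone of the 36 passed (higher), where 9.25% of all genes were called (5.51% higher and 3.74% lower). In the other table, 3 of 37 members differed between PURPL#2-OE and PURPL#1-OE (BRIP1 lower, EXO1 and MSH6 higher), where 12.4% of all genes were called (6.19% lower and 6.18% higher). Without the second or the third unnumbered PURPL#1-OE library 1 of them was left.

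**Figure D5:**
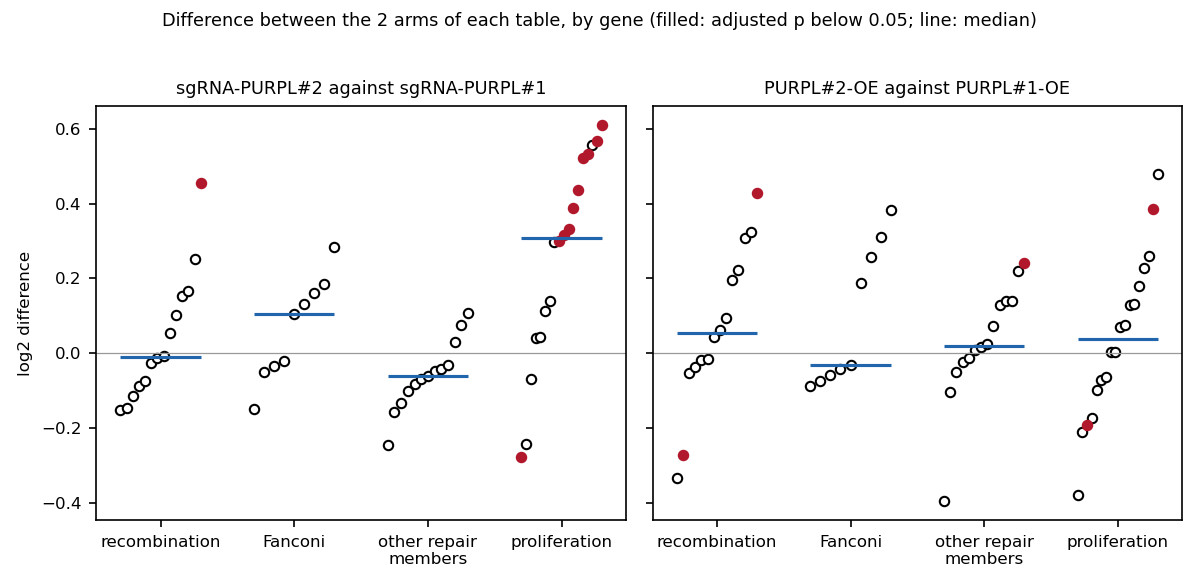
Log2 difference between sgRNA-PURPL#2 and sgRNA-PURPL#1 (left) and between PURPL#2-OE and PURPL#1-OE (right) for each repair gene and proliferation gene, filled where the adjusted p is below 0.05, with the median of each list as a line. Left, the proliferation genes centre on 0.31 and the recombination genes on -0.01.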

How the data were processed

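The authors deposited raw read counts per gene in 2 tables. Reads were aligned or counted with tools among which featureCounts 2.0.1, HISAT2 2.1.0 and cutadapt 3.3 are named, on hg38 or GRCh38.p13, per the submitters' processing notes. The annotation release is not given in the sources used here. Amplification used 18 cycles of PCR without molecular identifiers, per the labels' protocols, so copies of a fragment count separately. No replicate number stands on 5 overexpression columns, which were used as members of their group without one.

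Each table was fitted on all 9 libraries with edgeR 4.0.16 in R 4.3.3 (filterByExpr with min.count 10, TMM, robust quasi-likelihood test), and the script was tested on simulated data. A joint fit of all 18 libraries tested the difference between the experiments. All 37 members are named. Library values are given for those with the largest mean absolute change in each class among those called, and up to 4 other genes per list by number of calls. Some genes of the wider lists enter the counts and are not reported here by name. Members and lists were chosen with earlier results of these data known. Per-library class values used a pseudocount of 0.5 CPM. Alternatives were RLE and upper quartile scaling, no filter, only the groups compared, a replicate block, each library left out, DESeq2 1.42.0 and limma 3.58.1 with voom. Same-numbered knockdown libraries did not deviate together, so the numbers were not taken to pair them.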

Additional observations from a re-analysis of the deposited data

How the results depend on the processing

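Of 94 calls of members against control, 79 were kept under every alternative run and none changed sign. The rest are named beside their values where 1 library decided them. DESeq2 did not call BRCA2, XRCC3 and UBE2T with sgRNA-PURPL#1, FANCD2 and UBE2T with sgRNA-PURPL#2, FANCE in PURPL#1-OE and RAD54B in PURPL#2-OE. Without a filter FANCE, TP53BP1 (both PURPL#1-OE) and RAD54B (PURPL#2-OE) were not called, upper quartile scaling lost TP53BP1, limma-voom lost BRCA2, and a fit of only the groups compared lost BRCA2 and FANCD2. Of 52 values against control not called, 10 were called under at least 1 alternative. They were BRCA2 in both lines (DESeq2 and limma-voom), CHEK1 and FANCG in PURPL#2-OE (also in a fit of only the groups compared), and, on leaving out 1 library, FANCM in PURPL#2-OE and ATM, BRCA2, FANCL, PRKDC and XRCC3 with sgRNA-PURPL#2. Of the 18 members called in the joint test, 6 were lost under at least 1 alternative. The number of members called ranged from 19 to 22 with sgRNA-PURPL#1 against sgCtrl, from 16 to 21 with sgRNA-PURPL#2 against sgCtrl, from 25 to 29 in PURPL#1-OE and from 23 to 27 in PURPL#2-OE against Ctrl, and from 14 to 20 in the joint test. Leaving out 1 library gave 0 to 1 members between the guides and 1 to 4 between the lines. Median shifts of all genes under other scalings stayed under 0.03 on the log2 scale. The PURPL difference between sgRNA-PURPL#2 and sgRNA-PURPL#1 (0.30, adjusted p = 0.128) passed in a fit of these 2 groups alone (0.30), and without sgCtrl replicate 1 (0.31) or replicate 3 (0.30), with a range of 0.23 to 0.41 on leaving out 1 library. The cause was not tested. Deviations of log2 CPM from the group mean correlated at -0.11 to 0.04 between same-numbered knockdown libraries of different groups. A replicate block changed none of 108 knockdown values of the members from one side of the threshold to the other. The overexpression table could not be blocked, since 5 of its columns carry no number. Depth limits members under 5 CPM such as RAD54L, XRCC3 and RAD54B. In the lines BRCA2, at a higher level, had errors as wide as XRCC3 (SE 0.35 in each).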

Other observations

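BRCA2 varied between libraries of the same overexpression line more than almost any other gene above 10 CPM. Among the 8236 genes of that table with a mean above 10 CPM, genes were ranked by the smaller of the within-line standard deviations of log2 CPM. BRCA2 ranked 3rd, with 0.56 in PURPL#1-OE, 0.55 in PURPL#2-OE and 0.07 in Ctrl, where the median of that smaller value over all genes was 0.05. BRCA1 ranked 37th, with 0.35 in PURPL#1-OE, 0.20 in PURPL#2-OE and 0.16 in Ctrl. The next member, PALB2, ranked 581st. The pattern was noticed after the values were seen, and its cause was not tested. In the knockdown table BRCA2 ranked 762nd of 8750 genes and BRCA1 2911th.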
